A study of Mus musculus with 2 samples.

Results

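Antigen-presenting cells tell T cells how to respond through surface ligands, and 10 of the genes for these proteins were followed in macrophages with and without interleukin-4 (IL-4). The members were listed by name: *Pdcd1lg2*, *Cd274*, *Cd80*, *Cd86*, *Cd40*, *Icosl*, *Cd276*, *Vsir*, *Lgals9* and *Havcr2*. All 10 were found by NCBI gene number in both expression tables, out of 15623 genes listed in 1 or both.

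RNA sequencing was performed on thioglycollate-elicited peritoneal macrophages from young wild-type C57BL/6 mice, cells that an irritant draws into the peritoneal cavity and that were then purified by adherence to plastic. Macrophages were kept overnight in low-serum medium and were either left nontreated (NT) or given mouse IL-4 for 6 h, a Th2 cytokine that drives alternative (M2) polarization. Both groups carry the same wild-type genotype, and IL-4 is the only difference that the labels name. A time is given for the IL-4 sample only, so it is not stated whether NT was harvested together with it. Of the label fields, 1 names bone marrow as the tissue and another peritoneal macrophages. Each of the 2 groups held 1 library, so no difference below could be set against the spread between animals or cultures, and it is not stated whether cells of several mice were pooled. Macrophages lacking Trim24 were not analysed here.

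A naive T cell needs, besides its antigen, a costimulatory signal that CD80 and CD86 give through CD28, and the same 2 ligands inhibit through CTLA-4. Checkpoint ligands of the same B7 family restrain activated T cells: PD-L1, encoded by *Cd274*, and PD-L2, encoded by *Pdcd1lg2*, both bind PD-1, and VISTA, encoded by *Vsir*, is an inhibitory B7 relative abundant on myeloid cells. CD40 works in the other direction, as the receptor through which a T cell carrying CD40 ligand licenses the macrophage. Galectin-9 binds Tim-3, an inhibitory receptor of T cells that myeloid cells carry too. In macrophages, PD-L2 is a well-known product of the IL-4 and Stat6 pathway.

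The NT library held 11035641 expected counts (estimated reads per gene) over 14842 genes, and the IL-4 library held 11250099 over 14717 genes. The 3 counts taken as the limit of detection correspond to 0.272 CPM in NT and 0.267 CPM in IL-4, where CPM is the count scaled to the library total. Levels are given in FPKM (fragments scaled to transcript length and to the size of the library). Comparisons of levels between genes therefore depend on the transcript lengths deposited with the data, and no interval below covers an error in these lengths. Differences are log2 ratios, with IL-4 divided by NT, from counts scaled to the library totals with 0.5 count added. A gene was called higher or lower where its log2 ratio reached 0.75 in either direction, with an exact two-sided binomial p of at most 0.05 and a Benjamini-Hochberg (BH) value of at most 0.5. This test compares these libraries, not the conditions. All intervals are exact 95% intervals that cover counting error only, since reads amplified by PCR are not independent molecules. The M2 genes *Arg1*, *Chil3*, *Retnla* and *Mrc1*, which the study uses as its IL-4 readout and which are therefore no independent evidence, were all called higher, at log2 ratios of 7.95, 6.27, 4.16 and 3.33.

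*Pdcd1lg2* and *Cd274* lie side by side on mouse chromosome 19, with 22.8 kb between the end of the *Cd274* gene and the start of *Pdcd1lg2* (GRCm38). For each, the 250 bases upstream of the transcript start in the promoter table are shown because these neighbours share a receptor but differed in the size of their ratios. The sequences are from RefSeq (GRCm38.p6, plus strand), chr19:29410669-29410918 for *Pdcd1lg2* and chr19:29367188-29367437 for *Cd274*. The table's start for *Cd274* lies inside the gene span of 29362107 to 29388095, so the sequence before the outer start at 29362107 was not read here. Capitals mark the match to TTCNNNNGAA, the palindromic spacing that Stat6 is known to prefer.
Pdcd1lg2: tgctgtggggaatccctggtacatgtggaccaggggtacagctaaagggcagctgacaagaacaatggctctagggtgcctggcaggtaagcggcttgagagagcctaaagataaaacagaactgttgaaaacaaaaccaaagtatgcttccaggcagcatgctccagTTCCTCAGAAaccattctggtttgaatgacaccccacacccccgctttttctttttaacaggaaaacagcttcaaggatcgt
Cd274: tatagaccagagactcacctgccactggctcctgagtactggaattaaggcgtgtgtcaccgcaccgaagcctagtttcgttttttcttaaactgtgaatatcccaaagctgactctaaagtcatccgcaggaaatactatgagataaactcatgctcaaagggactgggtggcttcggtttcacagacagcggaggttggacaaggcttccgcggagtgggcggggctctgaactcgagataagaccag
The *Pdcd1lg2* window holds 1 such match, TTCCTCAGAA, from 82 to 73 bases before the start. The *Cd274* window holds none, nor a match to TTCNNNGAA, the spacing of other Stat factors, or to TTTCNNTTTC, an interferon-response type of element, on either strand. Among the 8 members with an entry in the promoter table, no other window held TTCNNNNGAA or TTCNNNGAA, and *Lgals9* held 1 TTTCNNTTTC match, 55 bases before its start. No match overlapped another. Of 32851 promoter windows of this length, 5.85% held TTCNNNNGAA, 7.02% held TTCNNNGAA and 2.98% held TTTCNNTTTC. These matches describe letters in the sequence, and binding was not measured here.

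Of the 10 genes, *Pdcd1lg2* and *Cd40* were called higher with IL-4, *Vsir* and *Icosl* were called lower, and 6 were not called. Among all 15593 genes tested, 4.07% were called higher and 6.28% were called lower. The 10 genes had a median log2 ratio of 0.17, beside -0.03 for all genes tested. Under the other threshold of the study, a fold change over 1.5 with a BH value of at most 0.05, *Cd274* joined the higher genes to make 3, with 2 lower, where 4.84% of all genes were higher and 7.74% lower. The called genes thus lay in both directions, and the summed level of the 10 was 212 FPKM in NT and 205 FPKM in IL-4.

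**Figure D1:**
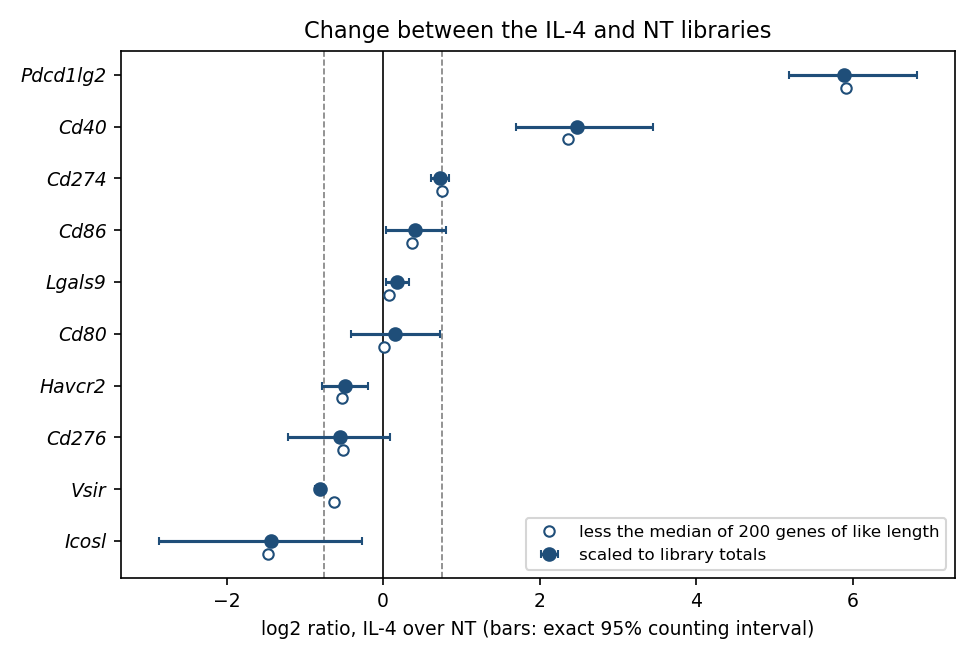
Log2 ratio, IL-4 over NT, for each of the 10 genes, with exact 95% counting intervals (filled points and bars) and after subtraction of the median ratio of 200 genes of like length (open points). Dashed lines stand at 0.75 in either direction. *Pdcd1lg2* stands apart at 5.89 and *Cd274* lies just under the line at 0.73.

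PD-L2 gave the widest difference. *Pdcd1lg2* (gene 58205, chromosome 19, 29410919 to 29472927) had 14 expected counts in NT and 879 in IL-4. Its level was 0.37 FPKM in NT (0.202 to 0.621) and 22.7 FPKM in IL-4 (21.2 to 24.3), so the intervals were far apart. The log2 ratio was 5.89 (5.19 to 6.82), a 59.5-fold difference (36.5 to 113). Ordered by log2 ratio, it stood at place 16 from the top of 9925 genes with at least 50 counts in the library with more. In NT it was the lowest of the 10 genes and sat at percentile 20.8 of all genes by FPKM, whereas in IL-4 it reached percentile 79.7 and the fourth place among the 10. Its exons share no bases with another annotated gene, and its counts were whole.

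PD-L1 was already abundant without IL-4. *Cd274* (gene 60533, chromosome 19, 29362107 to 29388095) had 1006.68 expected counts in NT and 1703.86 in IL-4. Its level was 24.8 FPKM in NT (23.3 to 26.4) and 41.1 FPKM in IL-4 (39.2 to 43.1), and these intervals did not overlap. The log2 ratio was 0.73 (0.62 to 0.84), a 1.66-fold difference (1.53 to 1.80), just short of the 0.75 needed for a call. The threshold fell inside the interval, and *Cd274* passed it with 2 other scalings, at 0.77 and 0.76, and after subtraction of a length trend, at 0.76. Its counts were not whole, as happens where RSEM divides reads among matching sequences. Its exons overlap the antisense gene *AC119228.1* by 511 bases, and since strand-specific counting is not stated, reads from that stretch cannot be assigned to either.

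The balance between the PD-1 ligands therefore differed between the libraries. *Pdcd1lg2* stood at 1.49% of the *Cd274* level in NT (0.813% to 2.52%) and at 55.2% in IL-4 (50.9% to 59.9%), on the FPKM scale. The log2 ratio of *Pdcd1lg2* exceeded that of *Cd274* by 5.16 (4.45 to 6.10). Together the pair made up 11.9% of the summed FPKM of the 10 genes in NT and 31.1% in IL-4. By FPKM, *Cd274* remained the more abundant transcript of the pair in both libraries. The percentages rest on deposited lengths of 3415 bases for *Pdcd1lg2* and 3653 for *Cd274*, whereas their annotated exons hold 1961 and 3622 bases. Their intervals do not cover this gap, and levels under other lengths were not tested. The difference between the log2 ratios comes from counts and does not use these lengths.

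**Figure D2:**
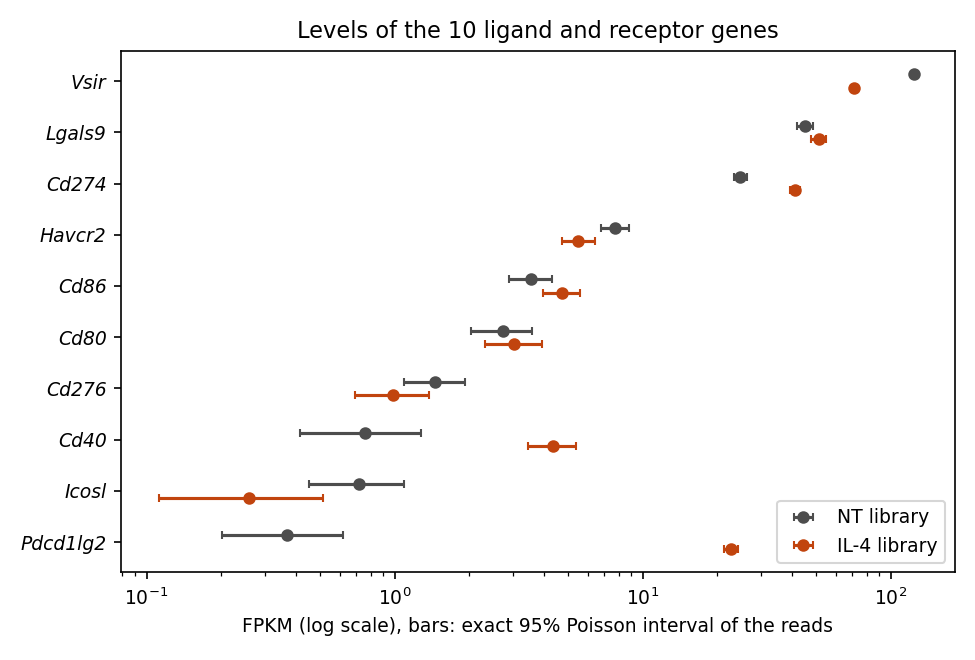
Level of each of the 10 genes in the NT library (grey) and the IL-4 library (orange), in FPKM on a log axis, with exact 95% Poisson intervals of the reads, ordered by the NT level. The IL-4 point of *Pdcd1lg2* lies at 22.7 FPKM, against 0.37 FPKM in NT, while the points of *Cd80* lie at 3.04 and 2.73 FPKM with intervals that overlap.

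The ligands of CD28 and CTLA-4 were low in both libraries and neither was called. *Cd80* (gene 12519, chromosome 16, 38457430 to 38495958) had 51 counts in NT and 58 in IL-4, or 2.73 FPKM (2.03 to 3.59) and 3.04 FPKM (2.31 to 3.93). Its log2 ratio was 0.16 (-0.41 to 0.73), an interval that includes no difference. *Cd86* (gene 12524, chromosome 16, 36568956 to 36666158) had 100 counts in NT and 136 in IL-4, or 3.56 FPKM (2.90 to 4.33) and 4.74 FPKM (3.98 to 5.61). Its log2 ratio was 0.41 (0.03 to 0.80), and 0.37 (-0.01 to 0.76) once the length trend was subtracted. The ratios of *Cd86* and *Cd80* differed by 0.26, with an interval from -0.44 to 0.95, so a difference between them was not detectable at this depth. The summed level of this pair was 6.29 FPKM in NT and 7.78 FPKM in IL-4.

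*Cd40*, the receptor for CD40 ligand, was called higher. The gene (21939, chromosome 2, 165055614 to 165071654) had 14 counts in NT and 82 in IL-4. Its level was 0.76 FPKM in NT (0.415 to 1.28) and 4.34 FPKM in IL-4 (3.45 to 5.39), and the intervals did not overlap. The log2 ratio was 2.48 (1.69 to 3.46), a 5.58-fold difference, at place 67 from the top of the 9925 genes with at least 50 counts. *Cd40* stood at 21.3% of the *Cd86* level in NT (11.3% to 37.5%) and at 91.6% in IL-4 (68.7% to 121%), a log2 difference of 2.07 (1.17 to 3.12). The percentages rest on deposited NT lengths of 1678 bases for *Cd40* and 2539 for *Cd86*, whereas their annotated exons hold 3406 and 3661 bases. In IL-4 its interval overlapped those of *Cd80*, *Cd86* and *Havcr2*.

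Among the other B7 relatives, *Vsir* was the most abundant of the 10 genes in both libraries and was called lower. It (gene 74048, chromosome 10, 60346851 to 60430294) had 6732 counts in NT and 3922 in IL-4. Its level was 125 FPKM in NT (122 to 128) and 71.2 FPKM in IL-4 (68.9 to 73.4), well outside each other's intervals. The log2 ratio was -0.81 (-0.86 to -0.75), so the NT level was 1.75-fold the IL-4 level. *Vsir* made up 58.8% of the summed FPKM of the 10 genes in NT and 34.7% in IL-4, and stood at 503% of *Cd274* in NT (470% to 538%) and 173% in IL-4 (163% to 183%). Its transcript is long, at 4846 bases, and the libraries differed by length: across 8461 genes with at least 200 reads, length and log2 ratio had a Spearman correlation of -0.45, with a median of 0.18 for the shortest 10% and -0.44 for the longest 10%. Less the median of genes of like length, which was -0.18, the ratio of *Vsir* was -0.62 (-0.68 to -0.57) and the call was lost. The part of transcript length in the *Vsir* difference was not otherwise tested.

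*Icosl*, the ligand of the T-cell costimulator ICOS, was scarce and was called lower on few reads. It (gene 50723, chromosome 10, 78069368 to 78079525) had 22 counts in NT and 8 in IL-4, or 0.72 FPKM (0.451 to 1.09) and 0.26 FPKM (0.112 to 0.512), intervals that overlap slightly. The log2 ratio was -1.43 (-2.86 to -0.27), so the NT level was 2.70-fold the IL-4 level. *Cd276*, which encodes B7-H3 (gene 102657, chromosome 9, 58524300 to 58555033), had 52 counts in NT and 36 in IL-4, or 1.46 FPKM (1.09 to 1.91) and 0.99 FPKM (0.693 to 1.37). It was not called, at -0.55 (-1.21 to 0.08), and 416 bases of its exons overlap *Gm10657* on the other strand. The ratio of *Icosl* less that of *Cd276* was -0.88, with an interval from -2.46 to 0.49 that includes no difference.

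Galectin-9 and Tim-3 form a ligand and receptor pair that can both be made by macrophages, and neither gene was called. *Lgals9* (gene 16859, chromosome 11, 78962979 to 78984924), which encodes galectin-9, had 742 counts in NT and 859 in IL-4, or 45.3 FPKM (42.1 to 48.7) and 51.4 FPKM (48.0 to 54.9). Its log2 ratio was 0.18 (0.04 to 0.33), and 0.08 less the length trend. *Havcr2* (gene 171285, chromosome 11, 46454931 to 46481255), which encodes Tim-3, had 233.61 counts in NT and 169.66 in IL-4, or 7.73 FPKM (6.78 to 8.80) and 5.51 FPKM (4.72 to 6.42). Its log2 ratio was -0.49 (-0.78 to -0.20), short of the threshold in size although the interval excludes 0. The ratio of *Havcr2* less that of *Lgals9* was -0.67, with an interval whose upper end was -0.35, and *Havcr2* stood at 17.1% of *Lgals9* in NT and 10.7% in IL-4 by FPKM.

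By FPKM, the order of levels was the same at the top of both libraries, with *Vsir*, then *Lgals9*, then *Cd274*, each outside the interval of the next. This order rests on the deposited lengths, which the intervals do not cover. For *Lgals9* that length was 1494 bases in NT, whereas its annotated exons hold 2137 bases. For *Cd274* the values were 3653 and 3622 bases, and the order under other lengths was not tested. In NT *Havcr2* followed, then *Cd86* and *Cd80*, whose intervals overlapped, and last *Cd276*, *Cd40*, *Icosl* and *Pdcd1lg2*, each of which overlapped its neighbour. In IL-4 *Pdcd1lg2* took the fourth place, apart from its neighbours on both sides. *Havcr2*, *Cd86*, *Cd40* and *Cd80* came next, each overlapping its neighbour, although the intervals of *Havcr2* and *Cd80* did not overlap. Compared directly in IL-4, and with the deposited lengths, *Cd86* stood at 156% of the *Cd80* level (114% to 216%), so overlap of intervals does not make 2 levels equal. *Cd276* and *Icosl* stood last, each apart from the gene above it.

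**Figure D3:**
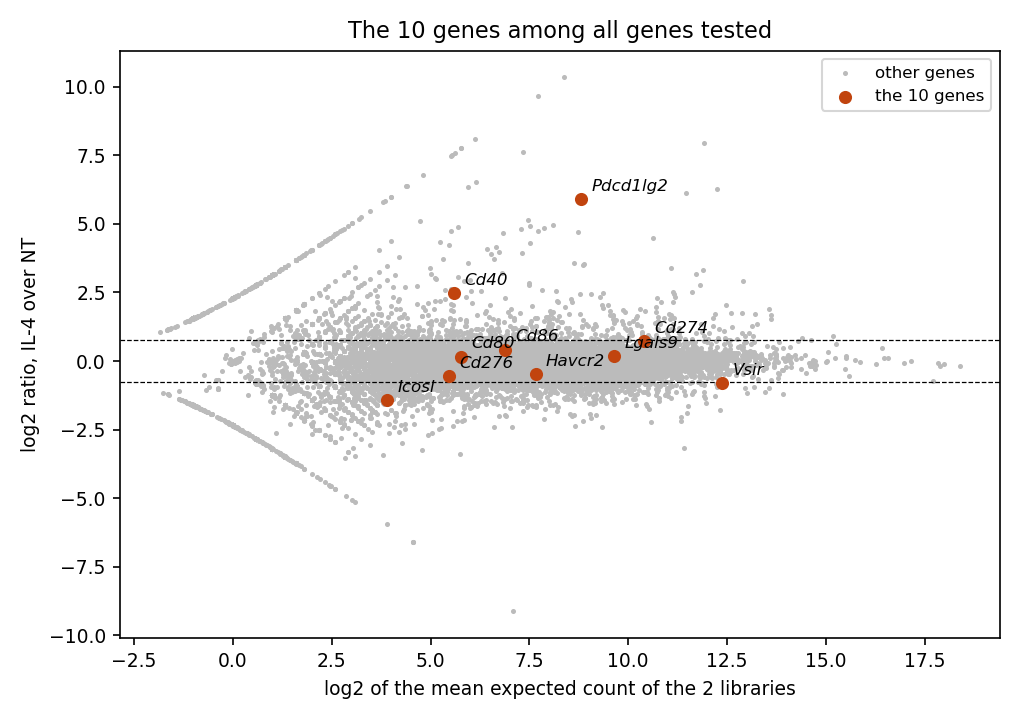
Log2 ratio, IL-4 over NT, against the log2 of the mean expected count for all genes tested (grey) and the 10 genes (orange); dashed lines stand at 0.75 in either direction. *Pdcd1lg2* lies near the upper edge of genes of its abundance, *Cd40* above the bulk, and the other 8 inside or at the rim of the cloud.

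Related genes outside the 10 were read from 6 lists by role. Of 53 tested, 2 were called higher and 6 lower, where 4.07% and 6.28% of all genes were. Of 12 other B7, nectin and butyrophilin relatives, 10 could be tested, 0 were called higher and 1 was called lower, *Tnfrsf14*, the HVEM receptor that binds BTLA, with 56 counts in NT and 33 in IL-4 (log2 ratio -0.78). The most abundant of them in NT, *Cd200*, a ligand that restrains myeloid cells, had 48.5 FPKM in NT and 29.9 FPKM in IL-4 and was not called at -0.70. Of 7 costimulators of the TNF superfamily, 4 were tested and 0 were called in either direction. Their highest count was 21, for *Tnfsf9* (4-1BB ligand) in NT, with 13 in IL-4, so only large differences could have been called there. The medians of these lists were -0.55 and -1.23, but only 6 and 1 of their genes had at least 20 counts in 1 library.

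Of 12 galectin and Tim relatives, 0 were called higher and 1 was called lower, *Ceacam1*, a Tim-3 binding partner, with 548.43 counts in NT and 330.03 in IL-4 (log2 ratio -0.76). Less the length trend its ratio was -0.75, just short of the threshold, and the call was lost. *Lgals3*, galectin-3, was the most abundant of them at 4701 FPKM in NT and 6588 FPKM in IL-4 and was not called at 0.49. Of 7 genes for proteins that hold or degrade PD-L1, 0 were called higher and 2 lower. These were *Cmtm4*, a PD-L1 stabilizer, with 228 counts in NT and 97 in IL-4 (-1.26, or -0.81 less the length trend), and *Hip1r*, with 8 and 1, too few for more than a mention and named after its values were seen. *Stub1*, a ubiquitin ligase and the most abundant of the 7, had 890 and 1178 counts and was not called at 0.38. The medians were 0.02 for the galectin list and -0.09 for the PD-L1 list.

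Of 11 genes that relay the CD40 signal, 1 was called in each direction, with a median of -0.02. *Traf5*, an adaptor, had 152 counts in NT and 316 in IL-4, a log2 ratio of 1.03 (0.74 to 1.32). *Traf3*, an adaptor that restrains the noncanonical NF-kB pathway, had 443 and 256 counts, a ratio of -0.82 that became -0.38 less the length trend. *Tank*, the most abundant of them, had 27.3 FPKM in NT and 21.8 FPKM in IL-4 and was not called. Of 9 genes for adhesion at the contact with T cells, *Cd47*, the ligand of SIRP-alpha, was called higher with 697 and 1444 counts (1.02, 0.89 to 1.16). *Alcam*, a ligand of CD6, was called lower with 4952 and 2774 counts (-0.86, or -0.68 less the length trend). *Sirpa* was the most abundant of the 9 at 432 FPKM in NT and 458 FPKM in IL-4, and the median was 0.10.

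**Figure D4:**
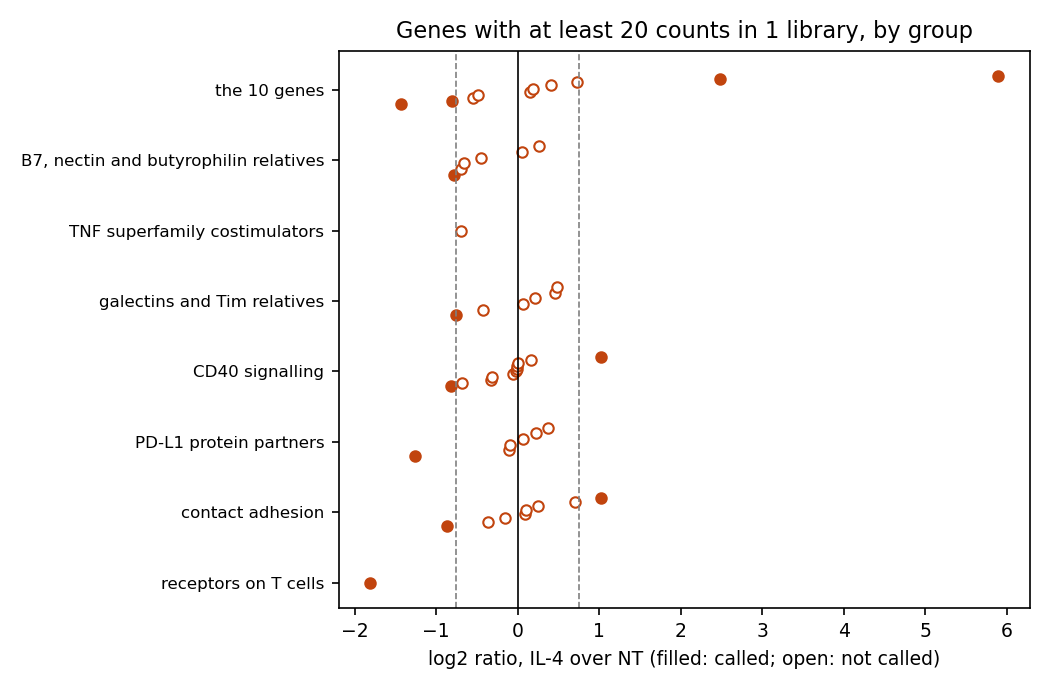
Log2 ratio of IL-4 over NT for genes with at least 20 counts in 1 library, by role; filled points were called, open points were not, and dashed lines stand at 0.75 in either direction. *Pdcd1lg2* and *Cd40*, at 5.89 and 2.48, lie to the right of every gene plotted in the other groups.

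Receptors of T cells that bind these ligands or related ones were low. Of 14 such genes, 10 were tested, 0 were called higher and *Cd28* was called lower (list median -0.98). Of those tested, only 1, *Cd28*, had at least 20 counts in 1 library, so the median rests on genes with almost no reads. *Cd28* had 252 counts in NT and 73 in IL-4, or 5.24 FPKM and 1.49 FPKM, a log2 ratio of -1.81 (-2.21 to -1.43). *Pdcd1*, which encodes PD-1, had 1 count in NT and 0 in IL-4, and *Ctla4*, *Lag3*, *Cd96* and *Cd40lg* were listed in neither library. Of the T-cell markers 0 of 8 tested were called, and their summed level, led by *Cd247*, was 4.95 FPKM in NT and 4.43 FPKM in IL-4. *Cd3e* had 4 counts in NT and 1 in IL-4.

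Since several of the 10 genes are also made by other cells, marker lists of those cells were read beside them. The 8 dendritic cell markers, none of them called, summed to 2.97 FPKM in NT and 2.92 FPKM in IL-4, led by *Ccr7*. The 7 B-cell markers summed to 37.6 and 38.0 FPKM, of which *Cd22* gave 30.2 and 32.0 FPKM; *Fcmr*, with 15 and 3, was called lower and is named after its values were seen. Of 7 neutrophil markers 3 were listed, at 14.0 and 9.39 FPKM in sum and led by *S100a8*, and *Ly6g* was listed in neither library. Of 6 eosinophil markers *Siglecf* was called lower, with 53 and 27 counts, and the sum was 2.36 and 1.44 FPKM; the 7 mast cell markers, led by *Tpsb2*, summed to 4.75 and 3.67 FPKM with 0 called. Of 6 mesothelial markers 3 were called: *Krt8* (20 and 74 counts) and *Lrrn4* (32 and 68) were called higher and *Msln*, the defining gene (named after its values were seen), was called lower (12 and 2), with sums of 6.55 and 9.57 FPKM. The 8 macrophage markers summed to 14906 FPKM in NT and 14768.5 FPKM in IL-4, led by *Lyz2*, with *Csf1r* called higher (0.90) and *Cd14* called lower (-1.07). The part of other cells in the values of the 10 genes was not tested, and in bulk RNA fewer cells of a type and less RNA per cell cannot be told apart.

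Genes with the pattern most like those of *Pdcd1lg2* and *Cd40* were found by distance in the plane of log2 CPM in NT and IL-4, over these 2 libraries alone. Nearest to *Pdcd1lg2* were *Ms4a4a* (16.31 counts in NT and 530.88 in IL-4, a distance of 0.758 log2 units), *Mmp13* (15 and 455, 0.954) and *Irf4* (30 and 820, 1.08). Among genes with at least 50 counts in 1 library, none lay as close to *Pdcd1lg2* as the 3 nearest to *Cd40* lay to it. These were *Ccdc88c* (14 and 85 counts, 0.0515), *Krt18* (12 and 79, 0.221) and *Raet1d* (13.71 and 68.77, 0.254).

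The genes on either side of the PD-1 ligand pair were read after the values of the pair had been seen. Of 8 other genes listed around the pair on chromosome 19, *Jak2*, the kinase, was called higher with 568 counts in NT and 1509 in IL-4, or 10.1 FPKM and 26.4 FPKM, a log2 ratio of 1.38 (1.24 to 1.52). *Insl6*, with 82 and 144 counts, was called higher at 0.78 (0.38 to 1.19). *Rcl1*, farther out on the same side, had a ratio of 0.60 and *Plgrkt*, whose annotated span overlaps that of *Cd274*, a ratio of 0.18, and neither was called. On the other side *Ric1*, *Ermp1* and *9930021J03Rik* had ratios of -0.18, -0.06 and -0.55 and were not called, and *A930007I19Rik* had at most 3 counts. *Pdcd1lg2* lay above every one of these neighbours.

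**Figure D5:**
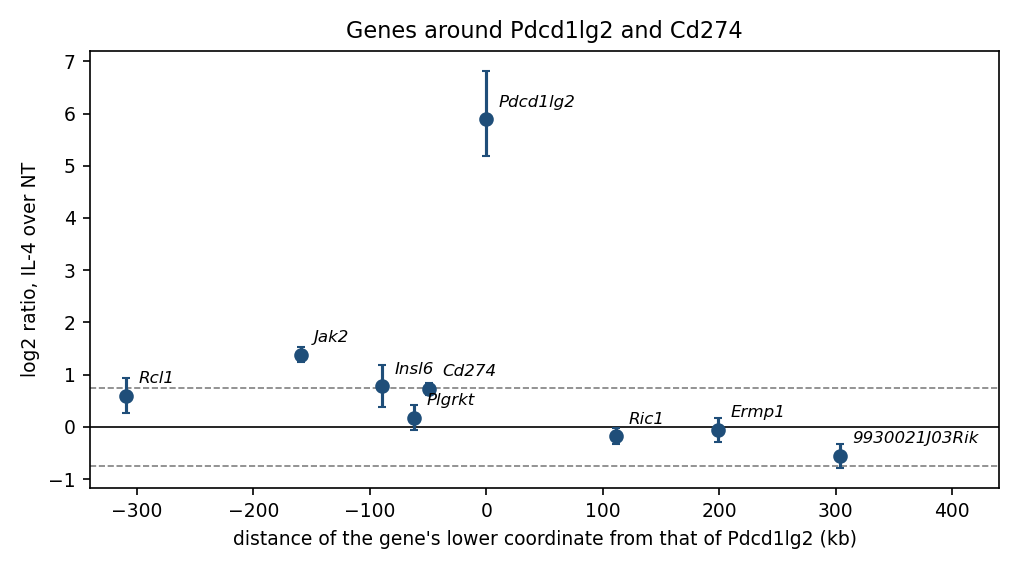
Log2 ratio of IL-4 over NT, with exact 95% counting intervals, for genes around *Pdcd1lg2* on chromosome 19, by the distance of the lower gene coordinate from that of *Pdcd1lg2* in kb; dashed lines stand at 0.75 in either direction. *Pdcd1lg2* is at 5.89, *Jak2* at 1.38, and genes beyond *Pdcd1lg2* lie at or below 0; *A930007I19Rik*, with at most 3 counts, is not drawn.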

How the data were processed

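RNA was prepared on columns from 2 samples and sequenced on an Illumina HiSeq. Per the labels and the study's methods, reads were mapped with Bowtie to GRCm38/mm10 and quantified with RSEM, whose versions are not given in the sources used here. The authors deposited an expected count per gene, the unscaled RSEM estimate of its reads, and FPKM, scaled for length and for mapped fragments. The deposited length in bases served for the length trend. A gene missing from a table was set to 0. Of 15623 gene numbers 15587 were matched to symbols through a RefSeq table of GRCm38, which gave coordinates (36 were not), and overlaps came from GENCODE M21.

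Expected counts were rounded for the test, which left out 30 genes at 0 in both. Each of 15593 genes was given an exact two-sided conditional binomial test against the share of the totals, with BH adjustment over all of them, and the thresholds the study states. Log2 ratios have Clopper-Pearson intervals and FPKM values Poisson intervals, and differences between ratios exact odds-ratio intervals. The length trend of a gene was taken as the median over its 200 neighbours in length among genes with at least 200 reads. The members and lists were chosen with earlier results of these data known. From lists, called genes and the gene with the highest FPKM are named, up to 4 per list with at least 20 counts in 1 library; defining cell markers are added. Alternatives were TMM (edgeR 4.0.16), median-of-ratios (DESeq2 1.42.0), 1 count added, FPKM with 0.1 or 1 added, an edgeR exact test with the biological coefficient of variation set at 0.2 or 0.4, other thresholds, a filter of 10 counts and the length trend. Python 3.11.15, scipy 1.17.1, pandas 2.3.3, numpy 2.4.6, matplotlib 3.10.9 and R 4.3.3 were used. The test was checked on simulated libraries with counting error alone. That check cannot show how often the test calls genes that differ only by the spread between animals or cultures.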

Additional observations from a re-analysis of the deposited data

How the results depend on the processing

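*Pdcd1lg2* kept its call in all 11 alternatives, with log2 ratios from 4.11 to 5.93, and the direction of all 10 genes was the same in each. The assumed coefficients of variation, the other thresholds and the count filter leave the ratios themselves unchanged, so no direction could turn there. The alternatives share the same 2 libraries and are not independent of each other. Over the 10 genes and 11 alternatives 98 values kept their side of the threshold. *Cd274* gained a call with TMM (0.77), median-of-ratios scaling (0.76), the 1.5-fold threshold and the length trend (0.76). The number of the 10 called lower was 1 with FPKM plus 1 (*Icosl* lost, at -0.45), 1 at a log2 ratio of 1 with BH 0.05 and 1 with the length trend subtracted (*Vsir* lost in both, at -0.62 in the latter), and 0 with an assumed coefficient of variation of 0.2. With 0.4, 1 was called higher (*Cd40* lost) and 0 lower. Over all genes, 391 were called higher and 399 lower with FPKM plus 1, 390 and 423 with a coefficient of 0.2, 65 and 8 with 0.4, and 408 and 476 at a log2 ratio of 1, where the main counts were 635 and 979. In the other alternatives these counts ran from 596 to 754 and from 732 to 1207. The pairs without *Cd274* and *Havcr2* had whole counts throughout, so a restriction to whole counts could not change their differences and is no check of them. No paired analysis was possible because NT and IL-4 were 1 library each, and for the same reason no replicate could be left out. Low counts in 1 or both libraries widen the intervals of *Icosl*, *Cd40*, *Pdcd1lg2*, *Cd276* and *Cd80*. Surface protein was not measured here, and the spread between animals is unknown.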
